A study of Homo sapiens with 18 samples.

Results

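The libraries described here compare siRagC2, the second of 2 siRNAs against RagC, with a control siRNA, siCtrl, in MDA-MB-231. This is an established human breast cancer line of the triple-negative, mesenchymal type. By their labels, 6 libraries were siRagC2 and 6 were siCtrl, which makes 12 of the 18 libraries in the series. The other 6 received the first RagC siRNA, siRagC1. They enter the scaling, the filter on low counts, the code series term, the estimate of spread and the comparison between the siRNAs. All groups were wild type by label, grown in L-15 medium with bovine serum and glutamine, and transfected with the Lullaby lipid reagent in OPTI-MEM, so the controls had also been through lipofection. Total RNA was taken after 72 hours, with 500 ng used per library. The study asked which genes are dysregulated when mTORC1 is repressed by silencing RagC. The column codes split every group into 2 series: replicates 1 and 2 carry the code D1103 and replicates 3 to 6 the code D1221. The sources used here do not say what the codes mean. The titles call the libraries of a group biological replicates. They do not say how those were kept apart, so each p-value speaks of the spread between libraries as they are.

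Cells set their growth by nutrients and growth factors through the kinase complex mTORC1. RRAGC encodes the small GTPase RagC. In a dimer with RagA or RagB it recruits mTORC1 to the lysosome surface and also presents the transcription factors TFEB and TFE3 to it for phosphorylation. Active mTORC1 favours ribosome production, nucleotide and serine synthesis and translation, and restrains lysosome formation and autophagy.

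The siCtrl libraries held 19 M to 44.3 M counts and the siRagC2 libraries 14.8 M to 71.6 M. Counts of mitochondrially encoded genes made up 4.15% to 6.63% of a siCtrl library and 4.17% to 6.17% of a siRagC2 library. The mesenchymal markers VIM, CD44, AXL, ZEB1, MSN and CAV1 were all expressed, from 114 CPM for ZEB1 to 4398 CPM for VIM in siRagC2 libraries, where CPM stands for counts scaled to a common library size with TMM factors (edgeR's correction for composition). The hormone receptor genes ESR1 and PGR averaged 0.0418 and 0.0339 CPM in siCtrl libraries. Other luminal genes were expressed, with KRT8 at 531.7 CPM, KRT19 at 358.4, KRT18 at 270.4, ERBB2 at 96.04 and EPCAM at 15.64 CPM in siCtrl libraries. Leukocyte and endothelial markers were near 0, with 5 leukocyte genes summing to at most 2.23 CPM and CD3E at 0, and VWF and CDH5, the endothelial genes found in the table, summing to at most 0.263 CPM.

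RRAGC (ENSG00000116954, chromosome 1), the targeted gene, was checked first. It stood at 60.6, 61.5 and 67.9 CPM (lowest, median and highest of 6) with siCtrl. With siRagC2, replicates 1 to 6 held 19.3, 21.6, 40.8, 30.4, 32.6 and 21.8 CPM. No siRagC2 library overlapped a control, and replicate 3 kept the most transcript. In percent of the same-numbered control, 28.5% remained in replicate 1, 35.4% in replicate 2, 65.6% in replicate 3, 49.1% in replicate 4, 53.7% in replicate 5 and 35.8% in replicate 6. RRAGC fell by 1.2 ± 0.17 on the log2 scale (SE, edgeR, adjusted p = 0.00135), from 62.4 ± 2.75 to 27.8 ± 8.30 CPM (mean ± SD, n = 6). Its partners RRAGA and RRAGB, and RRAGD, the paralog that can take its place in the dimer, missed the threshold, with log2 fold changes of 0.02 ± 0.04, 0.19 ± 0.06 and 0.23 ± 0.12 (adjusted p = 0.862, 0.0742 and 0.309). In bulk RNA, fewer cells with a transcript and less transcript per cell cannot be told apart.

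**Figure D1:**
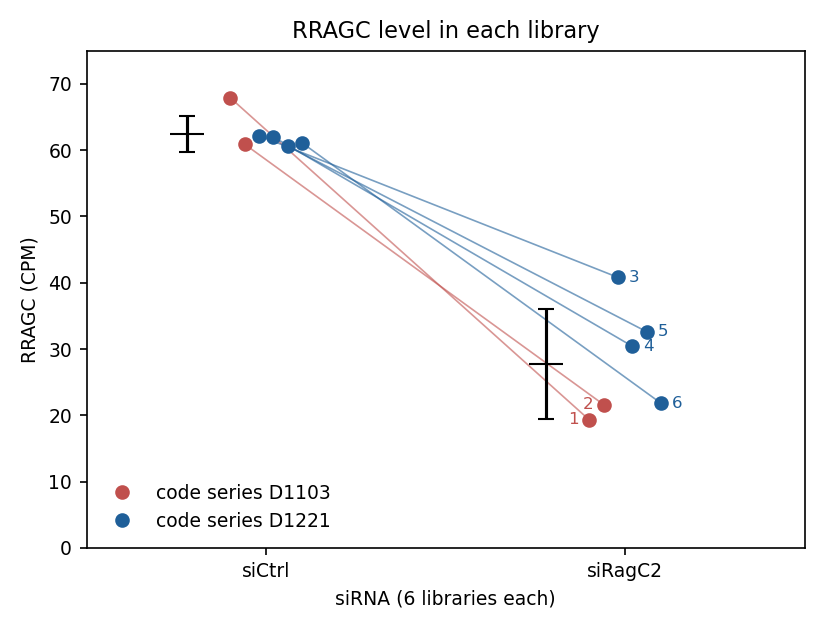
RRAGC level (CPM) in each of the 12 libraries, with lines joining same-numbered libraries, numbers marking the siRagC2 replicate and colours the code series; black bars are the mean ± SD of 6. The siRagC2 libraries lie between 19.3 and 40.8 CPM, all below the controls at 60.6 to 67.9 CPM.

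Across the transcriptome the response was broad and shallow. Of 15307 tested genes, 287 rose (1.87%) and 208 fell (1.36%) at an adjusted p under 0.05 by edgeR. Among these 495 genes the median absolute log2 fold change was 0.281, 217 changed by under 1.2-fold, 10 rose at least 2-fold, and RRAGC was the 1 gene that fell that far. The lowest siRagC2 library exceeded the highest control for 92 tested genes (0.601%), and the reverse held for 83 (0.542%). Of the genes past the threshold, 68 of those that rose and 51 of those that fell were separated in this way, and 258 and 193 moved in the same direction in all 6 same-numbered pairs. The test chose these genes from the same libraries, so such counts follow in part from the choice and are no separate support. Blocking on the replicate number gave 560 genes that rose and 426 that fell. Fitted without the siRagC1 libraries, 322 of the 495 genes passed again in the same direction. The counts also rested on single libraries. Without siCtrl replicate 1 they were 127 and 70, without siRagC2 replicate 1 they were 129 and 72, without siRagC2 replicate 4 they were 125 and 82, without siCtrl replicate 2 they were 162 and 128, and without siRagC2 replicate 2 the genes that fell numbered 127.

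Among genes past the threshold, the size of the change differed with expression level. The test itself favours this, because at low counts a small change rarely passes, so it is no finding about the response. Among the 3062 tested genes of lowest mean level (0.266 to 2.09 CPM), 24 rose and 1 fell, and the median size of their log2 fold changes was 0.91. Among the 3062 of highest level (81.8 to 11100 CPM), 58 rose and 71 fell, with a median of 0.21. Protein-coding genes supplied 275 of the genes that rose and 203 of those that fell, out of 12599 tested, and long noncoding RNAs 8 and 1 out of 1595.

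**Figure D2:**
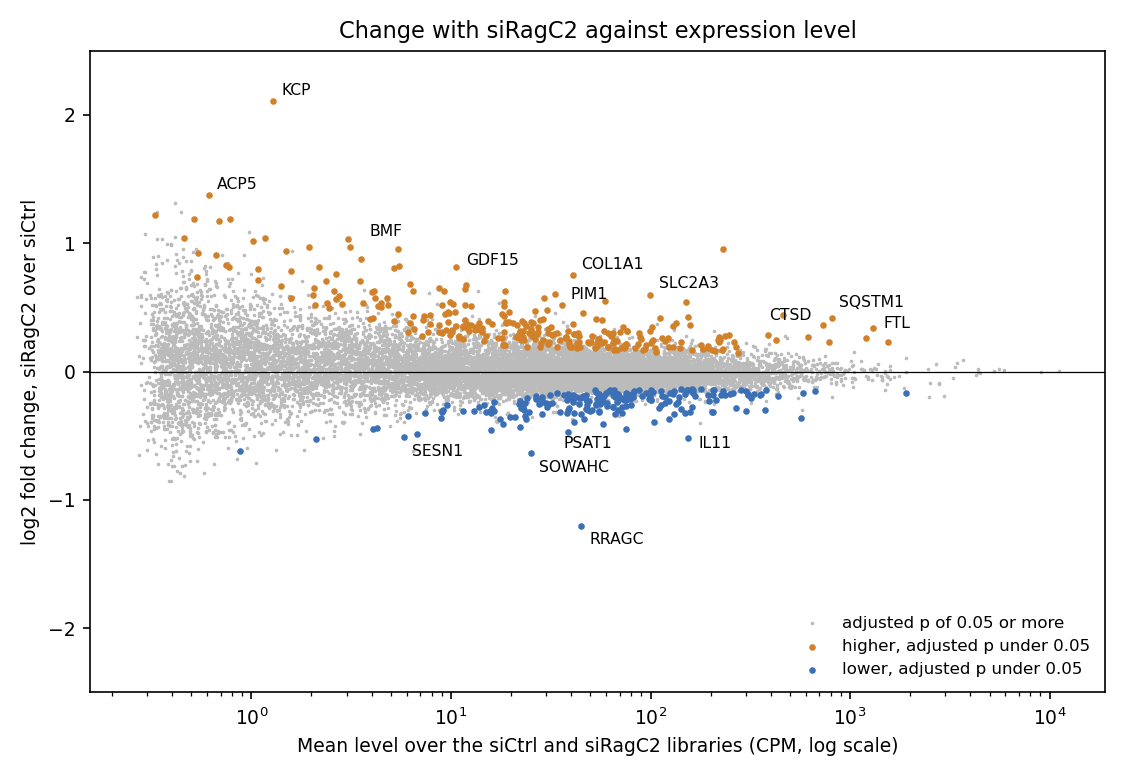
log2 fold change of siRagC2 over siCtrl against mean level (CPM, log scale) for the 15307 tested genes, with genes past the threshold in colour. KCP has the largest rise and RRAGC the largest fall among coloured points, and most coloured points in the upper range of levels lie close to 0.

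The gene with the smallest p, chosen for mention after its values were seen, was PIM1 (ENSG00000137193), a serine/threonine kinase that promotes survival. It stood at 26.7, 30.0 and 31.9 CPM with siCtrl (lowest, median, highest) and at 37.7, 42.9 and 47.5 CPM with siRagC2, so the groups did not overlap. PIM1 rose by 0.52 ± 0.05 (log2, SE, adjusted p = 1.39e-05). KCP (ENSG00000135253), a secreted modulator of BMP signalling, showed the largest rise, from 0.235, 0.532 and 0.616 CPM to 1.17, 1.91 and 3.79 CPM. Its log2 fold change was 2.11 ± 0.23 (adjusted p = 6.35e-05), at a level where few reads support each value. Of the 10 genes that rose at least 2-fold, several others named after their values were seen were as scarce: SMPDL3B, a membrane-bound phosphodiesterase, went from 2.00 ± 0.473 to 4.09 ± 1.11 CPM, and SIGLEC15, a sialic acid receptor, from 0.682 ± 0.298 to 1.36 ± 0.646 CPM (SD, n = 6). SIGLEC15 passed in 8 of the 12 fits that left out 1 library. The identifier ENSG00000117289, which has no symbol in the tables used here, went from 158 ± 27 to 306 ± 75.2 CPM (SD, n = 6), higher in 5 of 6 pairs, with overlapping groups. List members were matched by symbol, so this identifier is counted in no gene list.

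Among genes averaging at least 5 CPM, the 12 with the largest rises were BMF, SULT1C2, GDF15, SHC2, COL1A1, PADI1, COL16A1, SNN, RTN4RL2, HTRA3, THEMIS2 and MMP11. BMF (ENSG00000104081), a BH3-only protein that promotes apoptosis, went from 1.89, 3.03 and 5.95 CPM to 3.29, 6.47 and 12.3 CPM. The BMF groups overlapped, because controls of series D1103 started at 5.27 and 5.95 CPM, yet each siRagC2 library lay above its same-numbered control. BMF rose by 0.96 ± 0.15 (log2, SE, adjusted p = 0.00144). GDF15 (ENSG00000130513), a stress-induced secreted factor of the TGF-beta family, went from 3.68, 8.09 and 10 CPM to 10.4, 14.4 and 16.3 CPM without overlap (0.81 ± 0.17, adjusted p = 0.0154). SULT1C2, a cytosolic sulfotransferase, went from 3.21, 4.04 and 4.57 CPM to 4.84, 6.44 and 10.3 CPM, again without overlap (0.82 ± 0.12, adjusted p = 0.00107). In all, 6 of these 12 genes were separated between groups and 11 were higher in all 6 pairs, which their choice from these libraries favours.

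COL1A1, a chain of type I collagen, was the exception to the pairing. Its controls held 22.9 to 37.4 CPM, siRagC2 replicates 1 to 5 held 72.8, 60.9, 40.5, 62.6 and 50.5 CPM, and replicate 6 held 22.5 CPM. COL1A1 rose by 0.75 ± 0.20 (adjusted p = 0.0440), missed the threshold with the replicate block (0.75, adjusted p = 0.0673), and passed it in 3 of the 12 fits that left out 1 library. MMP11, a matrix metalloproteinase, was likewise lowest in siRagC2 replicate 6, at 3.64 CPM against 7.12 to 11 CPM in the other 5, and passed in 3 of those fits. For both genes siCtrl replicate 6 was also the lowest control, at 22.9 CPM for COL1A1 and 3.06 CPM for MMP11.

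The 12 genes with the largest falls were RRAGC, SOWAHC, IL11, SESN1, MPP4, FRS2, ZNF804A, PSAT1, ARG2, PHAX, BTRC and AMD1. PSAT1 (ENSG00000135069), the aminotransferase of serine synthesis, went from 75.7, 87.7 and 95.1 CPM to 49.5, 67.0 and 74.4 CPM. These ranges did not meet, and PSAT1 fell by 0.45 ± 0.06 (log2, SE, adjusted p = 0.000396). AMD1, which supplies decarboxylated S-adenosylmethionine for polyamine synthesis, went from 103, 115 and 136 CPM to 69.0, 95.5 and 106 CPM and fell by 0.39 ± 0.05 (adjusted p = 0.00106). FRS2, the docking protein of FGF receptors, fell by 0.47 ± 0.07 (adjusted p = 0.00186), and PHAX, an export adaptor for small nuclear RNA, by 0.41 ± 0.07 (adjusted p = 0.00371). SESN1, a p53 target that restrains mTORC1 through GATOR2, went from 6.81 ± 0.97 to 4.82 ± 1.05 CPM (SD, n = 6) and fell by 0.51 ± 0.13 (adjusted p = 0.0259). IL11, a cytokine of the IL-6 family, fell by 0.52 ± 0.13 (adjusted p = 0.0429), and BTRC, the substrate adaptor of an SCF ubiquitin ligase, by 0.39 ± 0.10 (adjusted p = 0.0295). With the replicate block IL11 and BTRC had adjusted p = 0.0701 and 0.0531, and IL11, MPP4, BTRC, SESN1 and ARG2 passed in 5, 6, 6, 7 and 8 of the 12 fits that left out 1 library. Of these 12 genes, 4 were separated between groups and 11 were lower in all 6 pairs, which their choice from these libraries also favours.

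**Figure D3:**
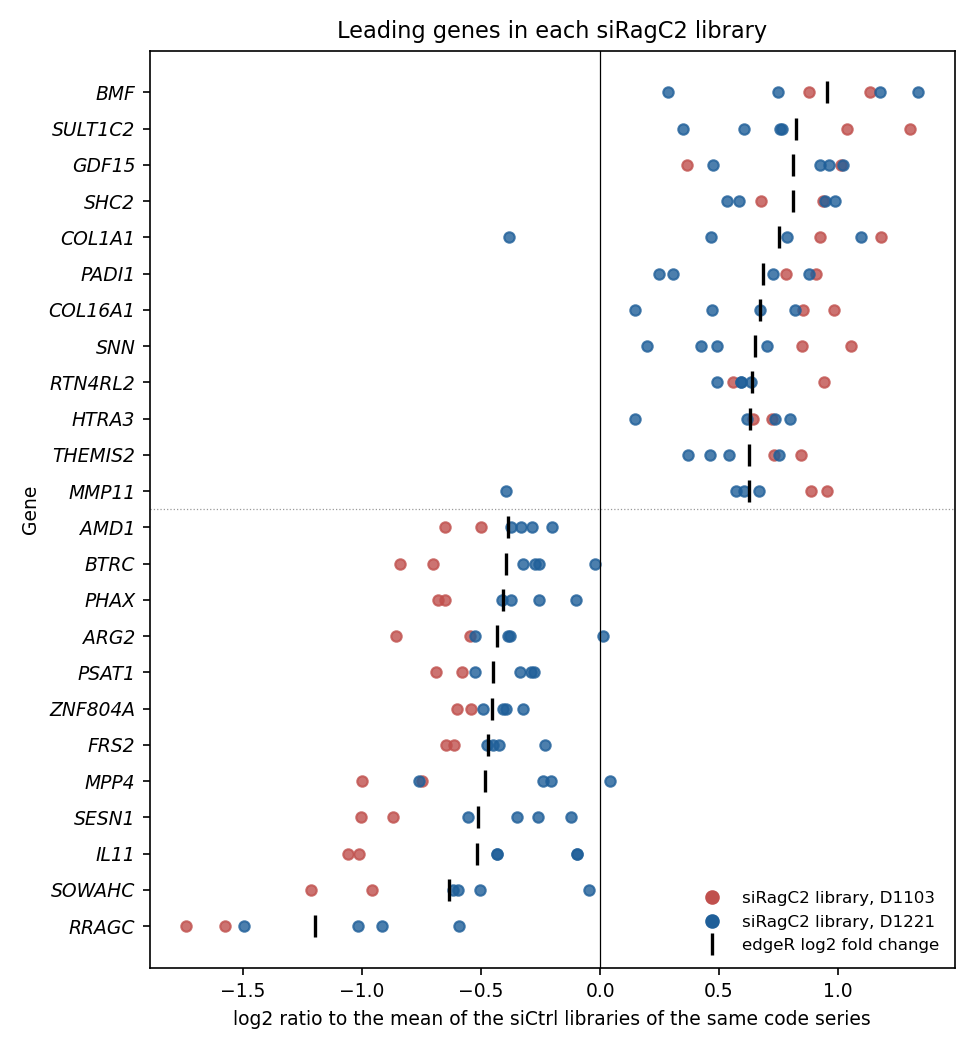
log2 ratio of each siRagC2 library to the mean of the siCtrl libraries of its code series for the 12 genes with the largest rises and the 12 with the largest falls at 5 CPM or more; black ticks are the edgeR log2 fold changes. For the genes that fell, red points (D1103) lie furthest from 0, and for COL1A1 and MMP11 a D1221 library, replicate 6, lies below 0.

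Of 46 lysosomal hydrolases and their cofactors tested, 17 rose and 1 fell, 40 had a positive log2 fold change, and the median was 0.165, against 0.00465 over all tested genes. Over all tested genes 1.87% rose and 1.36% fell, and each list count below is to be read beside these shares. The summed level of the list ran from 3780 to 4810 CPM in controls and from 4410 to 5480 CPM with siRagC2. ASAH1, acid ceramidase, went from 62.9, 68.6 and 68.9 CPM to 78.3, 83.0 and 92.6 CPM, with no overlap (log2 fold change 0.32 ± 0.06, adjusted p = 0.00352). NEU1, the sialidase, went from 17.6, 23.2 and 24.5 CPM to 24.9, 27.4 and 37.1 CPM, also apart (0.38 ± 0.07, adjusted p = 0.00411). CTSA, the protective protein that binds NEU1, rose by 0.23 ± 0.04 (adjusted p = 0.00666). Named after their values were seen, the cathepsins CTSL, CTSB, CTSD and CTSF rose by 0.22, 0.25, 0.37 and 0.28. CTSD controls ranged from 401 to 944 CPM and siRagC2 libraries from 679 to 1130 CPM, and each pair still moved up. ACP5, the tartrate-resistant phosphatase, rose by 1.37 ± 0.36 at under 2 CPM per library (highest 1.65). The sulfatase ARSB was the member that fell, by 0.24 ± 0.06 (adjusted p = 0.0294). ACP5 and ARSB were also named after their values were seen. CTSF, ACP5 and ARSB passed in 5, 5 and 7 of the 12 fits without 1 library. Without siRagC2 replicate 4 the list had 8 members past the threshold on the higher side, and 11 without siRagC2 replicate 1, siCtrl replicate 1 or siCtrl replicate 2.

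Of 29 lysosomal membrane proteins and transporters tested, 6 rose and 0 fell, with a median of 0.084. SLC17A5, the sialic acid exporter, went from 48.9, 51.7 and 56.0 CPM to 55.7, 63.7 and 74.1 CPM, higher in 6 of 6 pairs (log2 fold change 0.31 ± 0.05, adjusted p = 0.00336). NPC1 and NPC2, which move cholesterol out of the lysosome, rose by 0.27 ± 0.05 and 0.28 ± 0.07 (adjusted p = 0.0104 and 0.0259), and LAMP2, a major membrane glycoprotein, by 0.20 ± 0.05 (adjusted p = 0.0287). CLCN7, the lysosomal chloride-proton exchanger, named after its values were seen, rose by 0.30 ± 0.08 (adjusted p = 0.0364). NPC2, LAMP2 and CLCN7 passed in 7, 6 and 5 of the 12 fits that left out 1 library. The list kept 2 members without siCtrl replicate 1 or 5 or siRagC2 replicate 1 or 4, and 3 without siCtrl replicate 2 or siRagC2 replicate 3. Of 19 subunits of the V-ATPase, the proton pump of the lysosome, 1 rose and 1 fell. ATP6V0D2 went from 1.71, 2.17 and 4.14 CPM to 3.5, 4.53 and 5.68 CPM (0.87 ± 0.16, adjusted p = 0.00631), while ATP6V0A2 fell by 0.18 ± 0.05 (adjusted p = 0.0334), a call that 7 of the 12 fits without 1 library did not make.

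TFEB, TFE3 and MITF, which bind E-box letters in lysosomal promoters, were named after their values were seen, and 0 of the 3 passed the test. TFEB averaged 7.34 CPM with siCtrl and 7.51 CPM with siRagC2, TFE3 188.6 and 184.8 CPM, and MITF 44.0 and 38.7 CPM (log2 fold changes 0.04 ± 0.09, -0.03 ± 0.05 and -0.19 ± 0.07, adjusted p = 0.881, 0.836 and 0.163). The direction of TFEB changed without siCtrl replicate 6 and that of TFE3 within series D1221. The E-box core CACGTG, which reads the same on either strand, was searched in RefSeq promoter windows of GRCh38.p14, from 250 bases before to 50 after each listed start. It stood in a window of 16 of the 56 lysosomal genes matched (28.6%), including 7 of the 18 past the threshold (38.9%), against 12.3% of 11018 tested genes and 7.26% of all windows. Over all genes past the threshold it stood in 15.7% of those that rose and 17% of those that fell. The longer form TCACGTGA, which contains the core, stood in 8 of the 56 (14.3%) and 1 of the 18, against 2.24% of tested genes, 1.3% of all genes that rose and 1.17% of all that fell. For 6 of those 7 genes past the threshold, 1 match each is shown in the gene's 5′ to 3′ direction with the match in capitals, because the flanks differ between genes.
CTSA, chr20:45891298-45891327, + strand: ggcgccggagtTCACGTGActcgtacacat
NEU1, chr6:31862931-31862958, - strand: tgctgcgtgatCACGTGggaggagatga
CTSD, chr11:1763958-1763985, - strand: ccggccgcgccCACGTGaccggtccggg
CLCN7, chr16:1475059-1475086, - strand: ccgtcgctcatCACGTGgccccgtcgcg
CTSF, chr11:66568713-66568740, - strand: catataacaagCACGTGatagaggtcag
ARSB, chr5:78986102-78986129, - strand: aattcaataagCACGTGactaaaggatt
The matches begin 26, 126, 47, 47, 123 and 160 bases before the listed start. ARSB, which fell, carries the core too, and a match is a description of letters, not of binding. The lysosomal lists were chosen with earlier results of these data known, so their high share is not independent of that choice.

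The autophagy list of 43 genes had 3 that rose and 0 that fell, with a median of 0.047. MAP1LC3A, an LC3 protein of the autophagosome membrane, went from 5.28, 8.34 and 9.70 CPM to 8.67, 11.1 and 14.8 CPM (log2 fold change 0.54 ± 0.09, adjusted p = 0.00336). SQSTM1, the p62 cargo receptor, went from 484, 705 and 864 CPM to 746, 875 and 1250 CPM (0.42 ± 0.09, adjusted p = 0.0124). Groups overlapped for both, and each was higher in 6 of 6 pairs. ATG2A, a lipid transfer protein of the growing membrane, rose by 0.24 ± 0.06 (adjusted p = 0.0371) and passed in 3 of the 12 fits without 1 library. With the replicate block 5 members of the list rose. Of 40 genes of the Rag, Ragulator, GATOR and mTORC1 machinery, 2 rose and 2 fell. The risers were FLCN and its partner FNIP1, the complex that activates RagC as its GTPase activator, by 0.23 ± 0.05 and 0.25 ± 0.06 (adjusted p = 0.0221 and 0.0346). FLCN held 40.8 to 47.1 CPM in controls and 46.5 to 59.4 CPM with siRagC2. Neither passed without siCtrl replicate 1, siCtrl replicate 2 or siRagC2 replicate 1. RRAGC and SESN1 were the members that fell. MTOR, RPTOR and RHEB, named after their values were seen, had log2 fold changes of -0.00493 ± 0.04, 0.01 ± 0.06 and 0.02 ± 0.04.

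Among targets of FOXO factors and insulin feedback genes, the members past the threshold were all higher. Of 27 tested, 7 rose and 0 fell, with a median of 0.105 and a positive list median in all 6 siRagC2 libraries (0.0862 to 0.205). TXNIP, also on this list, was matched to no identifier and is not counted. CDKN1B, the cyclin-dependent kinase inhibitor p27, went from 54.3, 57.8 and 62.8 CPM to 64.3, 68.4 and 83.8 CPM, with no overlap (log2 fold change 0.30 ± 0.05, adjusted p = 0.00185). KLHL24, a ubiquitin ligase adaptor, went from 20.5, 23.2 and 26.8 CPM to 29.2, 34.1 and 41.5 CPM, also apart (0.58 ± 0.09, adjusted p = 0.00261). SOD2, the mitochondrial superoxide dismutase, rose by 0.36 ± 0.07 (adjusted p = 0.00965), and KLF6, a zinc finger factor, by 0.17 ± 0.04 (adjusted p = 0.0218). The list had 3 members past the threshold without siCtrl replicate 1, siRagC2 replicate 1 or siRagC2 replicate 4, and 4 without siCtrl replicate 5 or siRagC2 replicate 2. CDKN1B also belongs to the list of CDK inhibitors and p53 targets, where it was the 1 of 27 that rose and SESN1 the 1 that fell. Over all tested genes 1.87% rose and 1.36% fell, so counts of 1 say little about a list. In the BCL2 family, with 14 tested, BMF rose and BCL2L2, an anti-apoptotic member, fell by 0.22 ± 0.06 (adjusted p = 0.0454), passing in 3 of the 12 fits without 1 library.

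The series' title names degradation of the extracellular matrix, and genes of the matrix and its turnover were described next. Of 36 matrix proteases and inhibitors, 4 rose and 0 fell, with a median of 0.129, where 1.87% of all tested genes rose and 1.36% fell. TIMP2 (ENSG00000035862), an inhibitor of metalloproteinases that also takes part in MMP2 activation, went from 517, 561 and 580 CPM to 635, 665 and 739 CPM. The ranges were apart, and TIMP2 rose by 0.27 ± 0.03 (log2, SE, adjusted p = 0.000396). SERPINE2, an inhibitor of serine proteases, and ADAMTS15, a proteoglycan-cleaving protease, rose by 0.19 ± 0.04 and 0.25 ± 0.06 (adjusted p = 0.0176 and 0.0190), and MMP11 by 0.63 ± 0.16 (adjusted p = 0.0370). The 4 risers are thus 2 proteases and 2 inhibitors. Without siRagC2 replicate 6 the list had 8 risers, without siCtrl replicate 1 or 2 or siRagC2 replicate 1 it had 2, and with the replicate block 7.

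Of 41 collagens, laminins and other matrix proteins, 5 rose and 0 fell, with a median of 0.088. TGFBI, a matrix protein induced by TGF-beta, went from 83.0, 126 and 146 CPM to 128, 179 and 231 CPM, higher in 6 of 6 pairs (log2 fold change 0.54 ± 0.11, adjusted p = 0.0152). COL16A1 and MEGF6, a secreted protein with EGF repeats, rose by 0.67 ± 0.15 and 0.48 ± 0.11 (adjusted p = 0.0176 and 0.0179), and COL1A1 as above. The count was 9 with the replicate block. It was 1 without siRagC2 replicate 4, 2 without siCtrl replicate 1, and 3 without siCtrl replicate 2, 5 or 6 or siRagC2 replicate 1, 2 or 3. COL1A1 is also a fibroblast marker, and 1 of the 3 tested of that list rose, while COL3A1, DCN and PDGFRA averaged 0.105, 0.0664 and 0.0118 CPM with siCtrl and LUM 0.489 CPM. PDGFRB, a growth factor receptor of the same list, averaged 6.783 CPM with siCtrl and 6.399 CPM with siRagC2 and did not pass. The list summed to 28.2 to 46.7 CPM in controls and 27.2 to 79.2 CPM with siRagC2, and its part in the matrix genes was not tested. In BMP and TGF-beta signalling, 2 of 36 rose and 1 fell. Beside KCP, LTBP1, which tethers latent TGF-beta to the matrix, went from 86.0, 88.8 and 92.8 CPM to 101, 113 and 134 CPM (0.35 ± 0.06, adjusted p = 0.00454), and RGMB, a BMP co-receptor, went from 211, 228 and 259 CPM to 165, 187 and 194 CPM (-0.32 ± 0.06, adjusted p = 0.00791). Neither gene's groups overlapped. Among 36 integrin, focal adhesion and invadopodia genes 1 rose, TNS3, a tensin of focal adhesions (0.17 ± 0.04, adjusted p = 0.0355, passing in 3 of the 12 fits without 1 library), and among 43 genes of vesicle trafficking and lysosome exocytosis 0 passed. A count of 1 of 36 is near the share of all tested genes that rose, 1.87%.

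**Figure D4:**
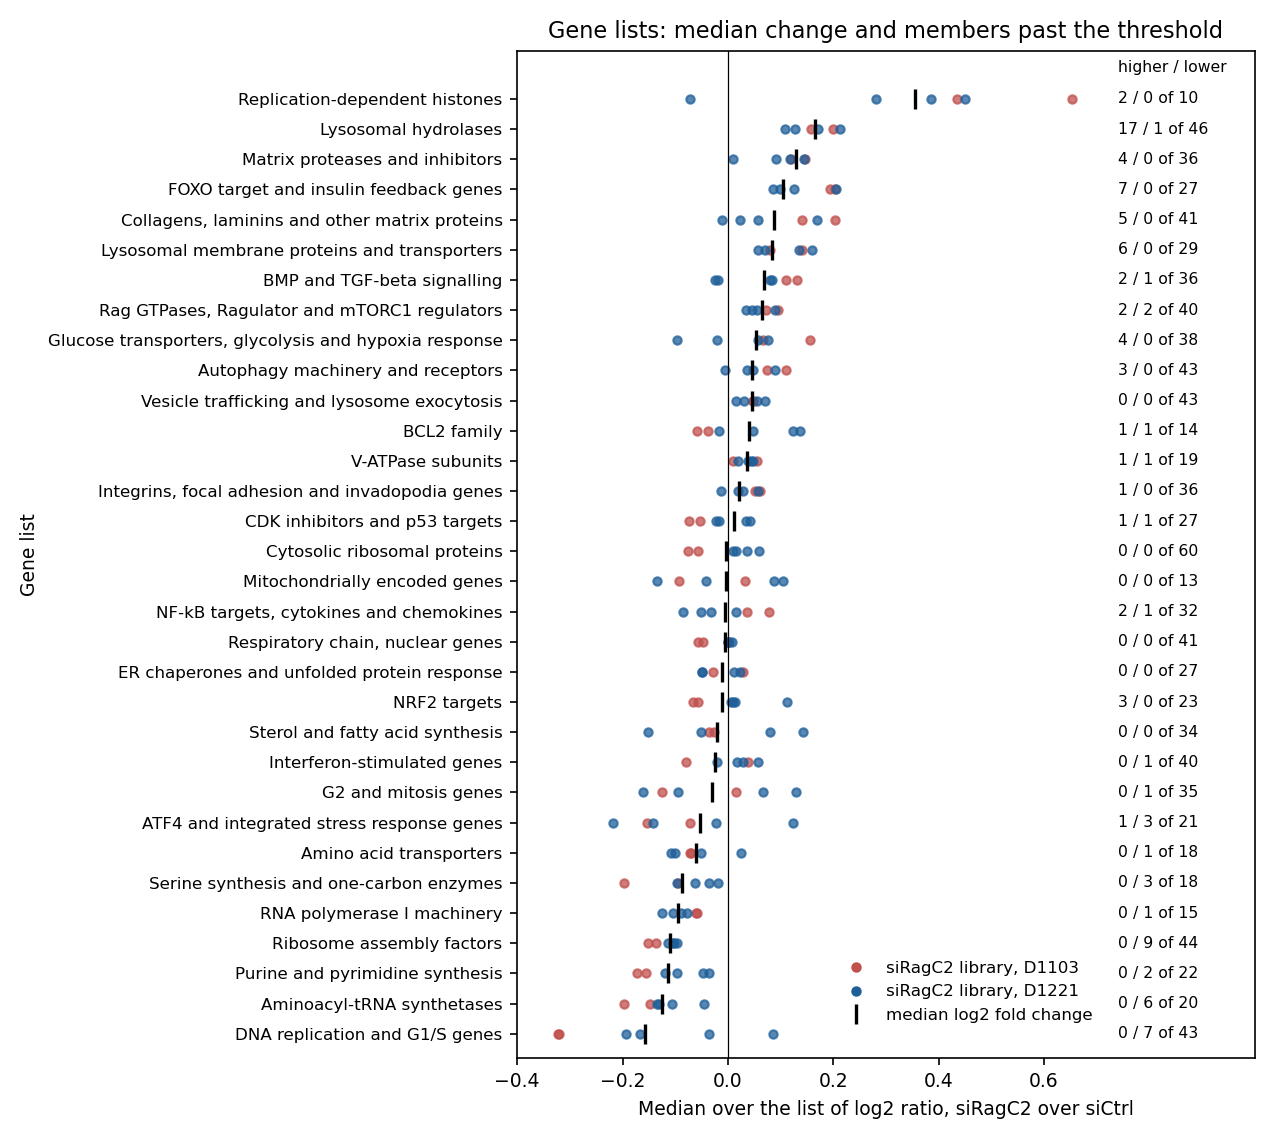
Median over each gene list of the log2 ratio of a siRagC2 library to the siCtrl mean of its code series (points) and median edgeR log2 fold change (ticks), with the members past the threshold as higher / lower of tested; lists of 10 or more tested genes. Hydrolases lie right of 0 in all 6 libraries, ribosome assembly factors left of 0 in all 6, and the D1103 points of replication genes stand apart near -0.32.

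Other lists held smaller sets. Of 23 NRF2 targets 3 rose: HMOX1, heme oxygenase, from 12.7, 15.9 and 21.3 CPM to 18.1, 22.2 and 27.9 CPM (log2 fold change 0.46 ± 0.07, adjusted p = 0.00200), and the ferritin chains FTL and FTH1 by 0.34 ± 0.06 and 0.26 ± 0.06 (adjusted p = 0.00320 and 0.0236). Ferritin genes have many pseudogene copies that can share reads, and the list's median was -0.01. Of 38 genes of glucose transport, glycolysis and hypoxia response 4 rose, led by SLC2A3, the GLUT3 transporter, from 70.2, 79.8 and 85.2 CPM to 77.5, 111 and 174 CPM (0.60 ± 0.12, adjusted p = 0.0107), whose reads can be shared with the near-identical SLC2A14. HKDC1, a hexokinase-like enzyme, CA12, a carbonic anhydrase, and P4HA2, a collagen prolyl hydroxylase, rose by 0.52, 0.28 and 0.22. The list had 2 risers without siCtrl replicate 1 or 2 or siRagC2 replicate 1, 2 or 4. Of 32 NF-kB targets, cytokines and chemokines, CSF1, the macrophage growth factor, and ICAM1, an adhesion receptor, rose by 0.44 ± 0.09 and 0.43 ± 0.09 (adjusted p = 0.0104 and 0.0110) and IL11 fell. Of 40 interferon-stimulated genes 0 rose and GBP1, a guanylate-binding protein, fell by 0.26 ± 0.05 (adjusted p = 0.0129). This count is near the share of all tested genes that fell, 1.36%.

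Replication-dependent histones had the highest list median, 0.356 over 10 tested genes, with 2 past the threshold. H2BC5 held 12.3 to 20.6 CPM in controls. With siRagC2 it held 30.6 and 27.3 CPM in replicates 1 and 2, 19.3, 21.6 and 21.1 CPM in replicates 3 to 5, and 12.1 CPM in replicate 6. It rose by 0.54 ± 0.12 (log2, SE, adjusted p = 0.0179), and H2AC6 by 0.47 ± 0.13 (adjusted p = 0.0440), which missed the threshold with the replicate block (adjusted p = 0.0644). Replicate 6 was again the lowest siRagC2 library, and without it 4 members rose. For H2BC5 siCtrl replicate 6 was also the lowest control, at 12.3 CPM, while for H2AC6 it held 21.5 CPM, within the range of the controls. The count was 0 without siCtrl replicate 2, siRagC2 replicate 1 or siRagC2 replicate 4, and 1 without siCtrl replicate 1, 4, 5 or 6 or siRagC2 replicate 2, 3 or 5. Histone genes are near copies of each other, most of their messages lack a poly(A) tail, and the sources used here do not name the library type.

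On the falling side were several ribosome assembly factors and no ribosomal protein gene. Of 44 ribosome assembly factors 9 fell and 0 rose, 3 had a positive log2 fold change, and the median was -0.11, with all 6 siRagC2 libraries between -0.152 and -0.0958. NOP58, a core protein of box C/D snoRNPs, went from 68.4, 73.0 and 78.4 CPM to 57.1, 62.8 and 66.3 CPM, with no overlap (log2 fold change -0.24 ± 0.04, adjusted p = 0.00468). UTP4, of the small-subunit processome, fell by 0.22 ± 0.04 (adjusted p = 0.00847), MRTO4, a factor of the large subunit, by 0.17 ± 0.04 (adjusted p = 0.0202), and NAT10, the RNA acetyltransferase, by 0.16 ± 0.04 (adjusted p = 0.0222). With the replicate block 15 members fell. The list had 2 without siCtrl replicate 1, siRagC2 replicate 1 or siRagC2 replicate 4, 4 without siCtrl replicate 2 or 4, and 14 without siCtrl replicate 6. Of 15 genes of RNA polymerase I, 1 fell, POLR1E, a subunit, from 45.3, 46.2 and 52.5 CPM to 36.5, 40.3 and 43.5 CPM (-0.25 ± 0.05, adjusted p = 0.0106). Of 60 cytosolic ribosomal protein genes 0 passed, 30 were positive and the median was -0.00268, and their summed level was 27500 to 29700 CPM in controls and 27800 to 29900 CPM with siRagC2.

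Several genes of amino acid and translation supply fell. Of 20 aminoacyl-tRNA synthetases, which charge tRNA, 6 fell and 0 rose, with a median of -0.126 and a negative list median in all 6 libraries. MARS1 went from 202, 215 and 222 CPM to 165, 183 and 196 CPM, TARS1 from 313, 336 and 374 CPM to 279, 295 and 312 CPM, and AARS1 from 142, 149 and 152 CPM to 123, 126 and 141 CPM. The groups were apart for all of these, with falls of 0.23 ± 0.04, 0.21 ± 0.04 and 0.20 ± 0.04 (log2, SE, adjusted p = 0.00715, 0.0120 and 0.0110). FARSB fell by 0.22 ± 0.04 (adjusted p = 0.00881). The count was 12 without siCtrl replicate 6 and 4 without siCtrl replicate 1. Of 18 serine and one-carbon genes 3 fell, PSAT1 and the mitochondrial folate enzymes MTHFD2 and MTHFD1L (by 0.19 ± 0.04 and 0.21 ± 0.05, adjusted p = 0.0202 and 0.0231), leaving 1 without siCtrl replicate 1 or siRagC2 replicate 1. Of 21 genes of the ATF4 and integrated stress response, GDF15 rose, and XPOT, the tRNA exporter, ASNS, asparagine synthetase, and CEBPG, a partner of ATF4, fell by 0.18 ± 0.04, 0.31 ± 0.07 and 0.18 ± 0.05 (adjusted p = 0.0184, 0.0225 and 0.0355). These 3 falls became 0 without siCtrl replicate 1 and 1 without siRagC2 replicate 1 or 4. Of 18 amino acid transporters 0 rose and SLC7A6 fell (0.21 ± 0.05 lower, adjusted p = 0.0308, in 6 of the 12 fits without 1 library).

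ATF4 binds, with C/EBP partners, an element known as CARE, searched here as TGATGNAA on both strands of the same windows. It stood in a window of 12 of the 48 matched genes of the synthetase, serine and ATF4 lists (25.0%), including 8 of the 13 past the threshold (61.5%), against 2.7% of tested genes and 3.62% of all windows. Over all genes past the threshold it stood in 7.6% of those that fell and 2.17% of those that rose. The matches are printed because the same letters recur near the start of genes in different lists, and a match on the opposite strand appears as its reverse complement.
MARS1, chr12:57488053-57488082, + strand: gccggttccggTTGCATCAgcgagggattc
AARS1, chr16:70289675-70289704, - strand: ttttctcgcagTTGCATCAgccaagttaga
TARS1, chr5:33440956-33440985, + strand: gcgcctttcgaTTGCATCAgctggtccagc
GARS1, chr7:30594834-30594863, + strand: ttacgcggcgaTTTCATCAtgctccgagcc
IARS1, chr9:92293692-92293721, - strand: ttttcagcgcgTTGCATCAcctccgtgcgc
ASNS, chr7:97872458-97872487, - strand: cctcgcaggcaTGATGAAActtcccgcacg
MTHFD1L, chr6:150866346-150866375, + strand: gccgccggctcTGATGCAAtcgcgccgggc
CEBPG, chr19:33374060-33374089, + strand: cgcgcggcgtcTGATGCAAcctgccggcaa
GARS1 and IARS1, named here for their match, fell by 0.17 ± 0.04 and 0.14 ± 0.03 (adjusted p = 0.0160 and 0.0279). ATF4 itself, named after its values were seen, averaged 225.3 CPM with siCtrl and 188.5 CPM with siRagC2. It narrowly missed the threshold (log2 fold change -0.25 ± 0.07, edgeR, adjusted p = 0.0504). The lists were assembled partly from genes known to respond to ATF4, so a high share among them is not independent of their choice.

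Genes of nucleotide and DNA synthesis fell in small numbers. Of 22 purine and pyrimidine genes 2 fell and 0 rose, with a median of -0.113: CTPS1, which makes CTP, by 0.24 ± 0.05 and UMPS, which makes UMP, by 0.22 ± 0.05 (adjusted p = 0.0151 and 0.0290). The count was 1 without siCtrl replicate 1 or 2 or siRagC2 replicate 1, 2 or 4. Of 43 replication and G1/S genes 7 fell and 0 rose, 2 had a positive log2 fold change, and the median was -0.157. MCM6, of the replicative helicase, went from 72.6, 79.5 and 94.6 CPM to 54.8, 71.3 and 81.6 CPM (log2 fold change -0.27 ± 0.06, adjusted p = 0.0151). CCNE2, cyclin E2, fell by 0.37 ± 0.09 (adjusted p = 0.0253), POLE2, a subunit of DNA polymerase epsilon, by 0.25 ± 0.06 (adjusted p = 0.0231), and PCNA, the sliding clamp, by 0.24 ± 0.06 (adjusted p = 0.0290). The list median was -0.323 and -0.321 in siRagC2 replicates 1 and 2, -0.167 and -0.193 in replicates 3 and 4, 0.0857 in replicate 5 and -0.0354 in replicate 6, so the lowest values came from series D1103. The count was 12 with the replicate block, 0 without siCtrl replicate 1 or siRagC2 replicate 1, 1 without siCtrl replicate 2 or siRagC2 replicate 2, 2 without siRagC2 replicate 3 or 4, and 4 without siCtrl replicate 6. Of 35 genes of G2 and mitosis, BUB3, a checkpoint protein, was the 1 that fell (by 0.17 ± 0.04, adjusted p = 0.0331, in 5 of the 12 fits without 1 library), near the share of all tested genes, 1.36%. An E2F-type letter string, TTTGGCGC, searched on both strands, stood in a window of 8 of 36 matched replication genes (22.2%), including 3 of the 6 past the threshold, against 1.32% of tested genes and 0.652% of all windows. Over all genes past the threshold it stood in 2.92% of those that fell and 0.87% of those that rose. The list was chosen with earlier results of these data known, and a match is a description of letters, not of binding.
MCM6, chr2:135876515-135876544, - strand: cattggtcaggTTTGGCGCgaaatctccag
POLE2, chr14:49688201-49688230, - strand: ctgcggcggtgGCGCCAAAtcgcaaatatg
CDC6, chr17:40287875-40287904, + strand: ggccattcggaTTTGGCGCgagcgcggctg
CDC6, a licensing factor named here for its match, fell by 0.30 ± 0.08 (adjusted p = 0.0441) and passed in 4 of the 12 fits without 1 library.

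Several lists had no member past the threshold in either direction: 34 genes of sterol and fatty acid synthesis (median -0.02), 41 nuclear genes of the respiratory chain (-0.01), 13 mitochondrially encoded genes (-0.00358) and 27 ER chaperones and unfolded protein response genes (-0.01). Among the cell type markers, CAV1, a caveolar coat protein of the mesenchymal list, averaged 464 ± 21.7 CPM in controls and 406 ± 23.8 CPM with siRagC2 (SD, n = 6) and fell by 0.19 ± 0.04 on the log2 scale (adjusted p = 0.0131), and 0 of the 7 luminal and 0 of the 3 leukocyte markers tested passed.

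The siRNAs against RagC share a target and are described as independent, and their sequences were not used here. Tested directly, siRagC2 minus siRagC1, 0 of 15307 genes passed by edgeR (0%), with 1187 at an unadjusted p under 0.05. DESeq2 called 29 and limma-voom 0, and without siRagC2 replicate 6 edgeR called 31. RRAGC itself had 23.9 ± 7.58 CPM with siRagC1 and 27.8 ± 8.30 CPM with siRagC2 (SD, n = 6), a difference of 0.23 ± 0.17 (log2, SE, unadjusted p = 0.182). The 5 genes with the smallest p were CEMIP2, SETD7, H2BC5, TUFT1 and MAP1LC3A, each at an adjusted p of 0.271. CEMIP2, a cell-surface hyaluronidase, averaged 73.6 ± 3.94 CPM with siCtrl, 76.1 ± 5.96 CPM with siRagC1 and 58.8 ± 8.06 CPM with siRagC2. Against the control its log2 fold change was -0.33 ± 0.07 with siRagC2 (adjusted p = 0.0152) and 0.05 with siRagC1 (adjusted p = 0.771). SETD7, a lysine methyltransferase, had -0.33 ± 0.05 and -0.07, and H2BC5 0.54 ± 0.12 and -0.03. MAP1LC3A had 0.54 ± 0.09 and 0.13, and TUFT1, a protein first described in tooth enamel, 0.05 ± 0.05 and -0.19.

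The leading genes, side by side, had the following log2 fold changes with siRagC2 and siRagC1, which were measured against the same controls. BMF had 0.96 and 0.66, GDF15 0.81 and 0.69, SULT1C2 0.82 and 0.77, KCP 2.11 and 2.05, PIM1 0.52 and 0.37 and PSAT1 -0.45 and -0.30. COL1A1 had 0.75 and 0.02, a difference of 0.73 ± 0.19 (SE, unadjusted p = 0.00148, adjusted p = 0.354). Of the 12 leading risers 5 and of the 12 leading falls 7 had an unadjusted p under 0.05 for the difference, and the smallest adjusted p were 0.354 and 0.280. For CDKN1B the difference was 0.20 ± 0.05 (0.30 with siRagC2, 0.10 with siRagC1, unadjusted p = 0.000329, adjusted p = 0.280), and for ATP6V0D2 it was -0.49 ± 0.14 (0.87 and 1.36, unadjusted p = 0.00244, adjusted p = 0.370). With all 18 libraries and the filter on low counts, no gene passed by edgeR, which does not show that the siRNAs act alike. Without the filter edgeR called 219 genes and in the D1103 libraries alone 231.

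The response was also read within each code series, of 2 libraries per group in D1103 and 4 in D1221. RRAGC fell by 1.65 ± 0.21 in D1103 and by 0.95 ± 0.15 in D1221 (log2, SE, both series in 1 fit), a difference with an unadjusted p of 0.0141 and an adjusted p of 0.735. Over all genes 0 differed between series by edgeR, with 1019 at an unadjusted p under 0.05. Of the 495 genes past the threshold, 208 of the 287 that rose and 177 of the 208 that fell (72.5% and 85.1%) had the larger absolute change in D1103, as did 62.2% of all tested genes. With fewer libraries per group, estimates in D1103 are less precise, which by itself favours larger absolute values there. Fitted alone, the D1103 libraries called 618 and 531 genes and the D1221 libraries 1 and 0, with 1420 at an unadjusted p under 0.05. The series have separate libraries, so genes called in D1103 alone can be read in D1221. Since D1103 chose these genes, their larger median there is part of the choice and is no measure of a difference between the series. Of 616 that rose in D1103, 461 (74.8%) were also positive in D1221 and 169 (27.4%) were positive with an unadjusted p under 0.05, with medians of 0.361 and 0.0991. Of 530 that fell, 411 (77.5%) were negative and 119 (22.5%) passed that unadjusted p, with medians of -0.324 and -0.0781. Over all 14990 genes tested in both, 58.3% agreed in sign and 7.97% did so with an unadjusted p under 0.05 in D1221, and the correlation across genes was 0.291 (Pearson) and 0.261 (Spearman), given as a description since genes are not independent replicates. Lysosomal hydrolases had medians of 0.201 and 0.154 in the series and ribosome assembly factors -0.136 and -0.101, while replication genes had -0.327 and -0.0561.

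**Figure D5:**
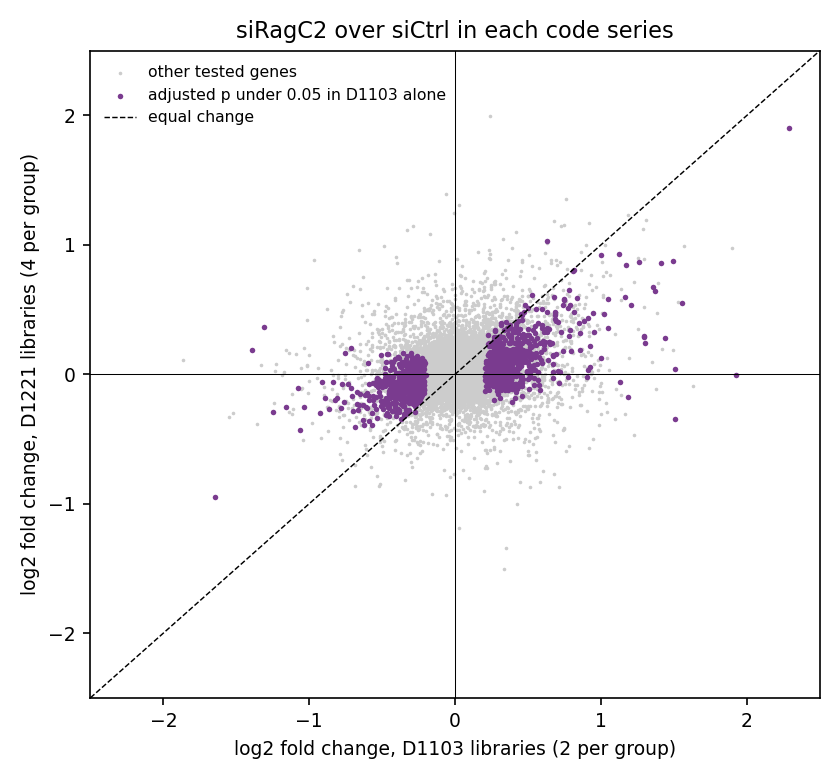
log2 fold change of siRagC2 over siCtrl in the D1103 libraries (x axis, 2 per group) and the D1221 libraries (y axis, 4 per group) for 14990 genes tested in both, with genes past the threshold in D1103 alone in purple. Most purple points share the sign of both axes but lie nearer 0 in D1221 than the dashed line of equal change.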

How the data were processed

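The authors deposited raw counts per gene, whole numbers for 57820 Ensembl identifiers in 18 libraries. The submitters' processing notes list STAR 2.7.6a, cutadapt 0.6.2 and the build GRCh37 (hg19). How reads were counted, on which strand and with which annotation was not stated in the labels. Without a stated strand, reads of overlapping antisense genes cannot be told apart. Symbols came from the name tables and GENCODE, which matched 39880 identifiers, 14260 of the 15307 tested.

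The test was edgeR's robust quasi-likelihood F test (edgeR 4.0.16 in R 4.3.3), after TMM scaling and filterByExpr by group, with terms for group and code series over all 18 libraries, and Benjamini-Hochberg adjustment over all tested genes at 0.05 with no minimum fold. SE is the log2 fold change divided by the square root of F. Changes are relative to library totals, since the labels name no spike-in. A second model gave each code series its own effect, chosen after seeing the data. Replicates of a group differed by 2.82 to 81.8 times the counting variance per gene, so no library duplicated another. Before code series was removed, same-numbered siCtrl and siRagC2 libraries had correlated deviations (0.116 to 0.492), with a library's own number the best match in 6 of 12 cases. The highest values, 0.482 and 0.492, were those of replicates 1 and 2, the D1103 pairs. Once code series was removed, the correlations were -0.0382 to 0.204. With 2 D1103 libraries per group, this removal forces 1 shared value, 0.137, on replicates 1 and 2. The correlations therefore do not settle whether pairing remained beyond the series. With the replicate block 3313 genes had an unadjusted p under 0.05 by edgeR, against 2833 in the main fit. The replicate block is given where it changes a result.

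Of 1081 genes in 38 lists, 1060 were found in the table and 999 passed the filter. The comparison, the lists and the alternatives were chosen with earlier results of these data known. Genes are named if they are Rag genes, cell type markers, the 12 largest changes in each direction at 5 CPM or more, up to 4 members of a list by p, or the 5 smallest p between the siRNAs. A gene outside this rule is called chosen or named after seeing its values, or named for a promoter match. Alternatives used RLE factors, other filters, DESeq2 1.42.0, limma-voom (limma 3.58.1), the block, no series term, fewer libraries and each library left out. The procedure was tested on simulated data. Those counts were drawn independently for each library, without pairing, so the simulation does not vouch for the calls made here. Its outcome is not reported here. Promoter windows were matched by symbol for 401 of the 495 genes past the threshold. Some members of the lists are not reported here by name.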

Additional observations from a re-analysis of the deposited data

Results flagged for a closer look

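In 11 of 222 groups of 6 libraries, 1 library stood apart from the rest by Dixon's criterion, which chance alone exceeds in about 1 of 20 groups. In siCtrl replicate 1, RRAGC stood at 67.9 CPM (next 62.2) and ARG2 at 33.0 CPM (next 25.4). In siCtrl replicate 2, ASAH1 stood at 62.9 CPM (next 68.2). In siCtrl replicate 6, RRAGA stood at 72.0 CPM (next 78.7), THEMIS2 at 10.6 CPM (next 14.3) and CCNE2 at 33.3 CPM (next 27.1). In siRagC2 replicate 1, RTN4RL2 stood at 19.3 CPM (next 14.8), TIMP2 at 739 CPM (next 672) and CAV1 at 359 CPM (next 406). In siRagC2 replicate 5, CDC6 stood at 73.0 CPM (next 61.8), and in siRagC2 replicate 6, TUFT1 stood at 33.2 CPM (next 38.1).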

How the results depend on the processing

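The number of genes higher with siRagC2 (287) became 549 with no filter on low counts, 489 with DESeq2, 448 with limma-voom, 560 with the replicate block, 12 with no code series term, 618 in the D1103 libraries alone and 1 in the D1221 libraries alone. The number of genes lower with siRagC2 (208) became 516 with DESeq2, 426 with the block, 7 with no code series term, 138 with the siCtrl and siRagC2 libraries alone, 531 in D1103 alone and 0 in D1221 alone. Leaving out 1 library gave 125 to 373 higher and 70 to 271 lower. Genes that differ between siRagC2 and siRagC1 (0) numbered 219 with no filter, 29 with DESeq2, 231 in D1103 alone and 0 to 31 with 1 library left out. The cause of these moves was not tested. RRAGC was -0.95 in D1221 alone (adjusted p = 0.0553). RRAGA, TFEB and TFE3, which missed the threshold, changed sign: RRAGA to -0.00125 without siRagC2 replicate 3 (up to 0.0428 with another library left out), TFEB to -0.00983 without siCtrl replicate 6 (up to 0.0768), and TFE3 to 0.039 in D1221 alone and 0.0386 within D1221 in the fit of both series. Of 103 named genes past the threshold other than RRAGC, 56 passed in all 12 fits without 1 library. With the siCtrl and siRagC2 libraries alone, 84 of the 103 passed and 19 did not. In that fit 13 lysosomal hydrolases rose (17 in the main fit), as did 4 lysosomal membrane proteins (6). There 5 ribosome assembly factors fell (9), while 3 histones rose (2). Beside COL1A1, IL11, BTRC and H2AC6, the block ended no call of a named gene. At the lowest of 5 expression levels, 0.266 to 2.09 CPM, few reads support each value, and 24 genes rose and 1 fell there. The difference between siRNAs could not be fitted with the siCtrl and siRagC2 libraries alone, and the leukocyte list had no tested member under the filter of 5 CPM in 6 libraries.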
